A study of Homo sapiens with 6 samples.

Results

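The genes described here are targets and regulators of ATF4 and of the unfolded protein response, followed in A-498 cells with and without zebularine. A probe set counted as a member if the array annotation gave it exactly 1 symbol and that symbol, current or earlier, was among 34 listed genes. This found 45 probe sets for 33 genes, out of 22277 probe sets and 11963 named genes on the array. No probe set carried the symbol of SESN2, a stress-induced regulator of growth signalling, alone, and SESN2 was not analysed here. All 45 probe sets were bright enough to test, and each gene is represented below by its brightest probe set, among 7939 genes tested in all.

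A-498 is an established line of human renal carcinoma cells. Zebularine is an analogue of cytidine and inhibits DNA methyltransferases. The series asked which genes change expression when this inhibitor is given. The 6 samples were 3 untreated cultures (0 µM) and 3 cultures with 1000 µM zebularine, all sampled at 120 h in medium with 10% fetal calf serum, and 1 array was hybridised per culture. The labels number the cultures of each group as biological replicates 1, 2 and 3, and both cultures of a number share a code in their descriptions; they are called experiments 1, 2 and 3 here. Cells of both groups were split on days 3 and 5, after treatment had begun on day 1. The labels name no genetic change made in either group, and the results describe 1 cell line at 1 dose and 1 time.

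ATF4 is a transcription factor whose mRNA is translated more when the initiation factor eIF2 is phosphorylated by kinases that sense amino acid shortage, misfolded protein in the endoplasmic reticulum (ER), double-stranded RNA or haem shortage. It binds with C/EBP proteins and raises genes of amino acid synthesis, amino acid uptake and tRNA charging. The unfolded protein response adds the arms of XBP1 and ATF6, which raise chaperones and degradation factors of the ER through a sequence called the ER stress response element (ERSE). Both responses meet in such genes as DDIT3 and HERPUD1, but amino acid genes belong mainly to ATF4 and ER chaperones mainly to XBP1 and ATF6.

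The promoters of 6 members show examples of these elements, and they are given here because the results set amino acid genes and ER genes side by side. Of the 6, only HERPUD1 holds elements of both kinds. In the groups used here ASNS is an amino acid gene, CHAC1 another stress target, XBP1 a regulator and the rest ER genes. The sequences are from RefSeq (GRCh38.p14) and are the 250 bases before the annotated start, written 5′ to 3′ in the direction of the gene, with matches to the motifs searched in capitals. ASNS lies at chr7:97872409-97872658 (minus strand), CHAC1 at chr15:40953221-40953470 (plus), HERPUD1 at chr16:56931892-56932141 (plus), HSPA5 at chr9:125241344-125241593 (minus), HSP90B1 at chr12:103930160-103930409 (plus) and XBP1 at chr22:28800570-28800819 (minus).
ASNS: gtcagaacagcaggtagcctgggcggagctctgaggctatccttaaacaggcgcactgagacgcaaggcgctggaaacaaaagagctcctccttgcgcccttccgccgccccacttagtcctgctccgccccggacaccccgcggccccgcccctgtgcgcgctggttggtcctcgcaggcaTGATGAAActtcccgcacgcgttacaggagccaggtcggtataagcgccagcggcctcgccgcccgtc
CHAC1: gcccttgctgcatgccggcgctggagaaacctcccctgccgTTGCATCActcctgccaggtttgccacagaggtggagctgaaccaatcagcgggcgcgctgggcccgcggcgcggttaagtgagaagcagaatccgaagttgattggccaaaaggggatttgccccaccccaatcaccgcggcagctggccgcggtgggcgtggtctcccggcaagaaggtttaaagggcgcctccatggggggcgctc
HERPUD1: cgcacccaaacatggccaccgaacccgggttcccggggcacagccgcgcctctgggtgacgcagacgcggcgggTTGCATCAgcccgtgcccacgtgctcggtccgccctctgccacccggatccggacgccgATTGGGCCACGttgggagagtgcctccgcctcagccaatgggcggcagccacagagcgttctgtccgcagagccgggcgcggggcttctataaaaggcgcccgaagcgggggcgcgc
HSPA5: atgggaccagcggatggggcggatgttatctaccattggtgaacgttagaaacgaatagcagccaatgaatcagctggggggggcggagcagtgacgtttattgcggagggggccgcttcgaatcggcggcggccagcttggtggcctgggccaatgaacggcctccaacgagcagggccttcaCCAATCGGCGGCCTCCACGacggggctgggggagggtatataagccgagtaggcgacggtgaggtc
HSP90B1: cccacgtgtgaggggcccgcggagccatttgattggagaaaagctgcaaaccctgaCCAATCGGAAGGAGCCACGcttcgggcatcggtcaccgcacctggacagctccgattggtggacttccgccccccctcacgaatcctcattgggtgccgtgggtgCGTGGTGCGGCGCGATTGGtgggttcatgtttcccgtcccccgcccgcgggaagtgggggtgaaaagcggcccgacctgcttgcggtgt
XBP1: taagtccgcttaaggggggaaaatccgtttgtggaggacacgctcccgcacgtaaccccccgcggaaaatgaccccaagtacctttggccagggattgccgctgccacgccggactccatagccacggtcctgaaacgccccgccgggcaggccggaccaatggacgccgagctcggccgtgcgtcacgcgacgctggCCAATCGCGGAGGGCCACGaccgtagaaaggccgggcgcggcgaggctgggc

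The motifs were TGATGNAA, the core of the C/EBP-ATF element, TGACGTGG, a core bound by XBP1 and ATF6, ERSE, which is CCAAT and CCACG with 9 bases between them, and ERSE-II, which is ATTGG and CCACG with 1 base between them. Both strands were searched in windows of 300 bases, 250 before to 50 after the start, and ERSE and ERSE-II share the letters CCACG. Of the 34 listed members 30 had a window, 46 windows in all. TGATGNAA was found in windows of 9 members, AARS1, ASNS, ATF3, CARS1, CEBPG, CHAC1, GARS1, HERPUD1 and SLC3A2, and in 3.62% of all 35116 windows. ERSE was found in HSPA5, HSP90B1 and XBP1 and in 0.0769% of all windows. ERSE-II was found in HERPUD1 and SDF2L1 and in 0.0541% of all windows, and TGACGTGG in CARS1 and in 0.729%. In ASNS the match begins 68 bases before the start, in HSPA5 66 and in XBP1 52. HERPUD1 holds a C/EBP-ATF core 176 bases and an ERSE-II 117 bases before its start. A match describes letters in a window and does not show that a factor was bound in these cells.

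Array medians ran from 118 to 141 signal units, and between 56.4% and 61.1% of probe sets reached 78.5 units, the level used to keep dim probe sets out of the test. The brightest signal was 31176 and 28720.5 on the untreated and treated array of experiment 3, against 66289.9 to 71174 on the other 4 arrays. The signal near the 3′ end of a control transcript was divided by that near its 5′ end, which rises as RNA breaks down, and the quotient ran from 1.01 to 1.52 for GAPDH and from 1.49 to 5.25 for ACTB. Of 9 listed markers of the kidney carcinoma line 8 were tested. PAX8, a kidney lineage factor, gave 1145 ± 103 units untreated and 858 ± 229 with zebularine (SD, n = 3 each). The epithelial keratins KRT8 and KRT18 and vimentin (VIM) gave at least 3379 units on every array. CDH6, a kidney cadherin, was the 1 marker of the line that limma called, with a difference of -2.85 ± 0.42 (adjusted p = 0.0206). Its signals were 1407, 2209 and 584 in untreated and 174.5, 103 and 209 in treated cultures. KRT19, another keratin, gave 34.5, 231 and 77.9 untreated and 209.8, 275 and 385 with zebularine (1.49 ± 0.51, limma, adjusted p = 0.251). Of 10 markers of blood, vessel, liver, islet, glial and muscle cells 9 were on the array and 0 reached the test, with a highest signal of 99.5. Their summed signal was 256.1 to 398.8 in untreated and 304.0 to 451.2 in treated cultures.

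The members showed no shift in 1 direction across the 3 experiments, and the widest differences lay among the untreated cultures. In untreated culture 2 most of them were low, in untreated cultures 1 and 3 they were high, and the treated cultures lay between. Within experiments 1 and 3 the members were therefore mostly lower with zebularine, with a median log2 difference of -0.66 and -0.85, and within experiment 2 mostly higher, with a median of 0.58. The corresponding medians over all tested genes were -0.02, 0.00 and 0.00. In experiment 1, 28 of 33 members were lower, 28 were higher in experiment 2 and 28 were lower in experiment 3. All 3 signs at once, lower, higher and lower, were seen in 23 of 33 members and in 12.8% of all tested genes. Of the 8 tested markers of the line 2 also showed this order, EPAS1, the hypoxia factor HIF-2 alpha, and PAX2, a kidney lineage factor. EPAS1 gave 5789.5, 2153.5 and 4143 units untreated and 4397, 2808 and 2324.5 with zebularine, lowest of the 6 in untreated culture 2, and its part in the result was not tested. In bulk RNA, fewer cells with an active response and less RNA per cell cannot be told apart. All log2 values here are of signal + 16.34, a floor that makes differences of dim genes look smaller than they are.

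**Figure D1:**
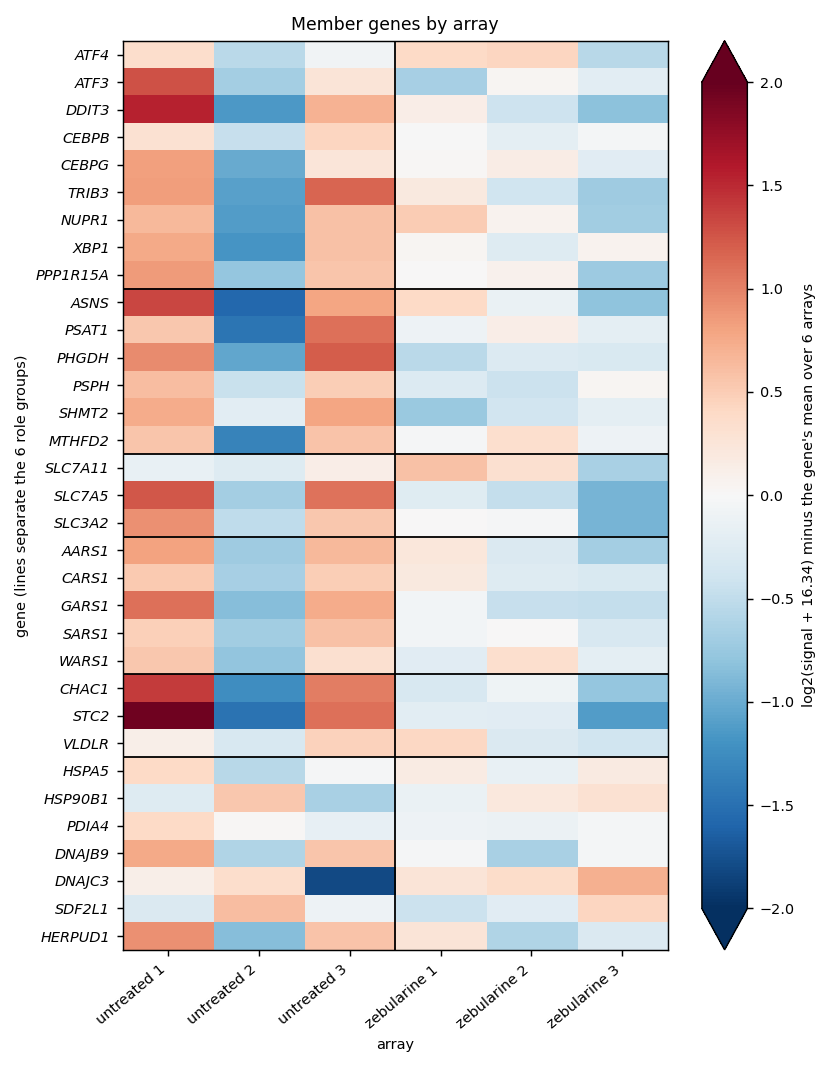
Level of 33 member genes (rows, in role groups separated by lines) on each of 6 arrays (columns), as log2(signal + 16.34) minus the mean of that gene over all 6 arrays; red is above and blue below that mean, and colours saturate at 2. The column of untreated 2 is mostly blue and those of untreated 1 and 3 mostly red down to VLDLR, while the 7 ER genes at the bottom do not share 1 pattern.

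The 9 regulators showed this order with 1 partial exception, ATF4 itself. ATF4 mRNA gave a signal of 10278, 5504 and 7639.5 units in untreated cultures 1, 2 and 3 and of 10569.8, 10865 and 5459 in the treated ones. It was higher with zebularine in experiment 2 and lower in experiment 3, and the groups overlapped. DDIT3 encodes CHOP, a C/EBP family factor of prolonged stress. Its signals were 2076, 308 and 1153 in untreated and 778, 526 and 393 in treated cultures. The treated values all lay inside the untreated range. TRIB3, a pseudokinase that dampens ATF4, had signals of 5672, 1485 and 7138 without and 3623, 2412 and 1938 with zebularine. ATF3, a stress factor of the ATF family, went from 1661 to 423, from 420.3 to 699 and from 815 to 586.5 in experiments 1, 2 and 3. PPP1R15A, whose product GADD34 lets eIF2 be dephosphorylated, was lower in experiments 1 and 3 (log2 difference -0.83 and -1.28) and higher in experiment 2 (0.85).

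CEBPG, a dimer partner of ATF4, gave 1554, 427 and 1027 untreated and 888, 964 and 739 with zebularine. NUPR1, a chromatin-associated stress protein, and XBP1, the factor of the IRE1 arm, were likewise lowest in untreated culture 2, at 1422 and 542 units. CEBPB, another C/EBP factor, had the narrowest untreated span of the regulators, 0.89 on the log2 scale, with signals of 5710.3 to 10618 in untreated and 6882 to 7840.0 in treated cultures. Untreated culture 2 was the lowest of the 3 untreated ones in all 9 regulators, and the lowest of all 6 cultures in 8. In experiment 2 all 9 were higher with zebularine and in experiment 3 all 9 were lower. The limma estimates, which average the experiments, ran from -0.72 ± 0.52 for DDIT3 to 0.18 ± 0.32 for ATF4 (standard error, log2), and none passed.

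The enzymes of serine, asparagine and one-carbon synthesis were all lowest in culture 2 among untreated cultures. ASNS, asparagine synthetase, gave 9353, 1227 and 6368 units in untreated and 4861, 3352 and 2109 in treated cultures. The highest and the lowest of the 6 values were both untreated. On the log2 scale its untreated cultures spanned 2.91, against 0.90 for ATF4. PHGDH opens the serine pathway, PSAT1 carries out its next step and PSPH the last. PHGDH had signals of 1911, 470.1 and 2289 without and 675, 815 and 792.5 with zebularine, a span of 2.24 among untreated and 0.27 among treated cultures. PSAT1 stood at 2791, 685 and 4107 and at 1775, 2089 and 1674. PSPH varied less, with 2987, 1425 and 2742 in untreated and 1594, 1433 and 1984 in treated cultures.

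MTHFD2, a mitochondrial folate enzyme, gave 6422, 1724 and 6538 untreated and 4308, 5562 and 4082 with zebularine. Its difference in experiment 2, 1.68 on the log2 scale, was the largest in that experiment among members. SHMT2, the mitochondrial enzyme that makes glycine and a one-carbon unit from serine, was the exception of the group. It gave 3924, 2039 and 4086 units in untreated and 1392, 1807 and 2045 in treated cultures, and so was lower with zebularine in all 3 experiments (-1.48, -0.17 and -0.99). Of all tested genes 22.0% were lower in all 3. The estimate for SHMT2 was -0.88 ± 0.30 (limma, adjusted p = 0.249, and 0.0585 with the experiment as a block).

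SHMT2 had 2 further probe sets, and on both of them all 3 treated signals lay below all 3 untreated ones. On the brightest probe sets, 8.83% of all tested genes showed such a separation. The probe set 214437_s_at gave 1493, 1082 and 1413 in untreated and 524, 666 and 641 in treated cultures. Its difference was -1.10 ± 0.25 (limma, adjusted p = 0.0784, or 0.0218 in the blocked fit), lower in 3 of 3 experiments. The probe set 214095_at had -1.01 ± 0.34 (limma, adjusted p = 0.249, or 0.0514 in the blocked fit). Of the 45 member probe sets, 0 passed without the block, and 214437_s_at was the 1 that passed with it. Over all tested genes 0.642% passed without and 4.45% with the block, so 1 of 45 does not exceed the background.

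The transporters divided. SLC7A5 (LAT1) and SLC3A2 (4F2hc) form the exchanger that imports large neutral amino acids, and both were low in untreated culture 2. SLC7A5 had signals of 12195, 3194 and 10945 without and 4323, 3680.0 and 2703.5 with zebularine. Its estimate, -1.10 ± 0.42, was the most negative of all members (limma, adjusted p = 0.307, or 0.0700 in the blocked fit). SLC3A2 gave 3281, 1206 and 2520.4 untreated and 1742, 1698 and 901 with zebularine. SLC7A11, the cystine importer xCT, which NRF2 also controls, did not share the pattern. It gave 5131, 4742 and 6249 in untreated and 8509, 7118 and 3608 in treated cultures, so that its untreated range was the narrowest of the members, 0.40 on the log2 scale, and its treated range, 1.23, the widest. A dimmer probe set of SLC7A11, 207528_s_at, was higher in all 3 treated cultures (447, 578 and 319.5 units) than in any untreated one (203.5, 266 and 216.5), higher by 0.89 ± 0.30 (limma, adjusted p = 0.240, or 0.0698 in the blocked fit). Of all tested genes 9.33% had all treated signals above all untreated ones. The brighter probe set 217678_at showed no such separation. It gave 5170, 3626 and 5155 untreated and 6119, 5467 and 3604 with zebularine, with an estimate of 0.11 ± 0.27 (limma, adjusted p = 0.907), and the brightest probe set had 0.17 ± 0.31.

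All 5 tRNA synthetases, which charge tRNAs with their amino acids, were lower in experiments 1 and 3 and higher in experiment 2. GARS1, for glycine, was the brightest and had signals of 14424, 3706 and 11256 without and 6433.5, 4857 and 4825 with zebularine. AARS1, for alanine, stood at 5074.5, 1769 and 4552 and at 3386.5, 2353 and 1799. SARS1, for serine, and CARS1, for cysteine, had log2 differences of -0.53, 0.70 and -0.92 and of -0.33, 0.40 and -0.80 (experiments 1, 2 and 3). WARS1, for tryptophan, which interferon gamma also induces, had -0.77, 1.13 and -0.51. In all 5 the treated values lay inside the untreated range, and the estimates ran from -0.66 ± 0.41 (GARS1) to -0.05 ± 0.34 (WARS1).

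STC2 had the widest untreated span of all members. STC2, a secreted stress glycoprotein, gave 1109, 89.0 and 611 units in untreated and 237, 234 and 119 in treated cultures, and the untreated cultures spanned 3.42 on the log2 scale. In all, 0.0756% of all tested genes had an untreated span that wide. A dimmer probe set of STC2, 203439_s_at, gave 228, 63.6 and 159 units untreated and 155, 96.4 and 111 with zebularine. It showed the same order with a smaller untreated span, 1.61, and an estimate of -0.16 ± 0.46 (limma, adjusted p = 0.916), against -1.04 ± 0.65 on the brightest probe set. CHAC1, which breaks down glutathione, gave 528, 71.5 and 402 untreated and 150.0, 177 and 104.5 with zebularine. VLDLR, a lipoprotein receptor, did not share the pattern, with differences of 0.29, 0.03 and -0.85.

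**Figure D2:**
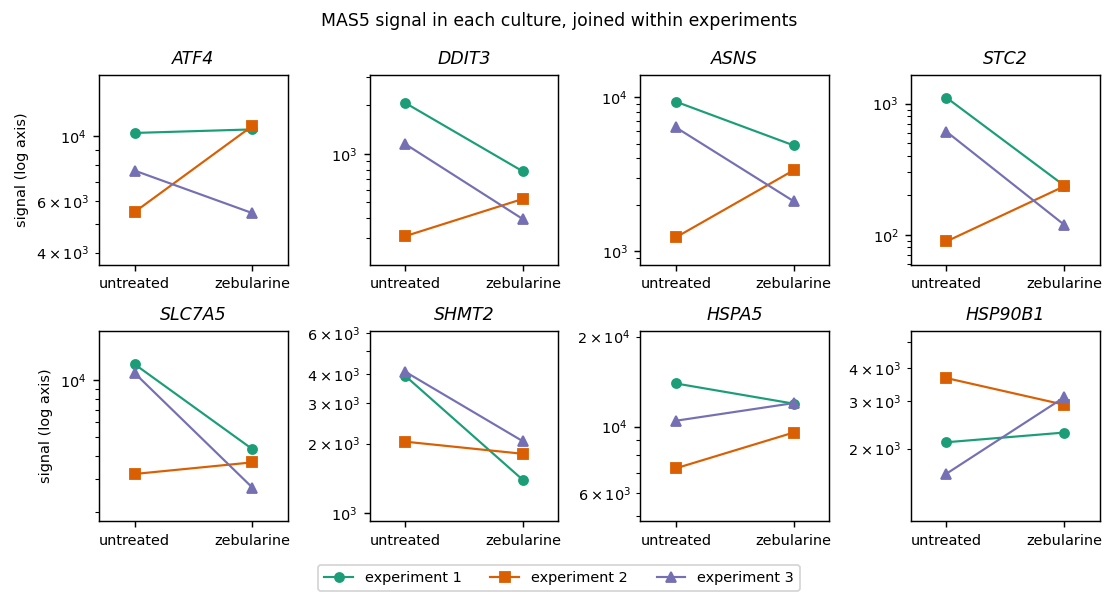
MAS5 signal (log axis, own scale in each panel) of 8 members in untreated and zebularine-treated cultures; each line joins both cultures of 1 experiment. DDIT3, ASNS, STC2 and SLC7A5 converge from a wide untreated spread, SHMT2 is lower with zebularine in each experiment, and HSP90B1 has its highest value in untreated 2.

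The ER chaperones and degradation factors shared no order across the 6 arrays. HSPA5 (BiP), the main ER chaperone, gave 13940.2, 7243 and 10453 units in untreated and 11928, 9547 and 11979 in treated cultures. It was lowest in untreated culture 2 but with a span of 0.94 against 2.91 for ASNS, and its estimate was 0.12 ± 0.28 (limma, adjusted p = 0.890). HSP90B1 (GRP94), the ER member of the HSP90 family, was highest there, with 2112, 3666 and 1612 in untreated and 2295, 2914 and 3109.5 in treated cultures. The same order was seen on its dimmer probe set, at 139, 598 and 115 in untreated cultures. Both are of a type (_x_at) that can bind other transcripts. PDIA4, a disulfide isomerase, gave 2375, 1826 and 1610.5 in untreated and 1688, 1666 and 1745 in treated cultures. Its span on the log2 scale was 0.56 among untreated and 0.07 among treated cultures. The dimmer probe set of PDIA4 gave 1022, 725 and 756.5 untreated and 981, 735 and 772 with zebularine.

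DNAJC3, an inhibitor of eIF2 kinases that also acts as an ER co-chaperone, was dim, at 178, 212 and 35.0 units in untreated and 197, 216 and 278 in treated cultures. Its estimate of 0.90 ± 0.50 rested on untreated culture 3 (0.14 and 0.03 in experiments 1 and 2, 2.52 in experiment 3). SDF2L1, a partner of BiP, ran from 163 to 354 units, highest in untreated culture 2. The 2 remaining genes were, like HSPA5, lowest in culture 2 among untreated cultures. HERPUD1, an adaptor of ER-associated degradation, had signals of 5324, 1565 and 4191.5 without and 3371, 1860.4 and 2306 with zebularine. DNAJB9, a co-chaperone induced by XBP1, gave 1459, 559 and 1262 untreated and 844, 541 and 836 with zebularine, lower in all 3 experiments, with an estimate of -0.47 ± 0.35 (limma, adjusted p = 0.619). Its dimmer probe set gave 243, 118 and 239 units untreated and 90.7, 68.5 and 117 with zebularine, all treated values below all untreated ones, and an estimate of -0.96 ± 0.41 (limma, adjusted p = 0.362). Of all tested genes 8.83% had all treated signals below all untreated ones, and 22.0% were lower in all 3 experiments.

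As a group the 7 ER genes had medians of -0.22, -0.05 and 0.20 in experiments 1, 2 and 3, and the 14 amino acid genes had -0.83, 0.54 and -1.11; the difference between both groups was not tested. Untreated culture 2 was the lowest untreated one in 3 of the 7 ER genes and in all 14 amino acid genes. Over all tested genes this was so in 39.2%, and over the members in 29 of 33. The 4 exceptions, HSP90B1, PDIA4, DNAJC3 and SDF2L1, are all ER genes. HSP90B1 was read on _x_at probe sets only, and DNAJC3 and SDF2L1 were dim, with highest signals of 278 and 354 units. The brighter HSPA5, HERPUD1 and DNAJB9 were lowest in culture 2 among untreated cultures, like the amino acid genes. PDIA4 was an exception on its brightest probe set only, since its dimmer one was lowest in untreated culture 2. Of 12 further probe sets of 10 members, 10 also had their lowest untreated value in culture 2, and 12, 11 and 11 had the sign of the brightest probe set in experiments 1, 2 and 3. Untreated culture 2 had a GAPDH 3′ to 5′ ratio of 1.19 and an ACTB ratio of 2.38. These ratios were 1.52 and 3.10 in untreated culture 1 and 1.07 and 1.71 in untreated culture 3. The highest ACTB ratio, 5.25, was that of treated culture 1. Whether RNA quality bears on the order was not tested.

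**Figure D3:**
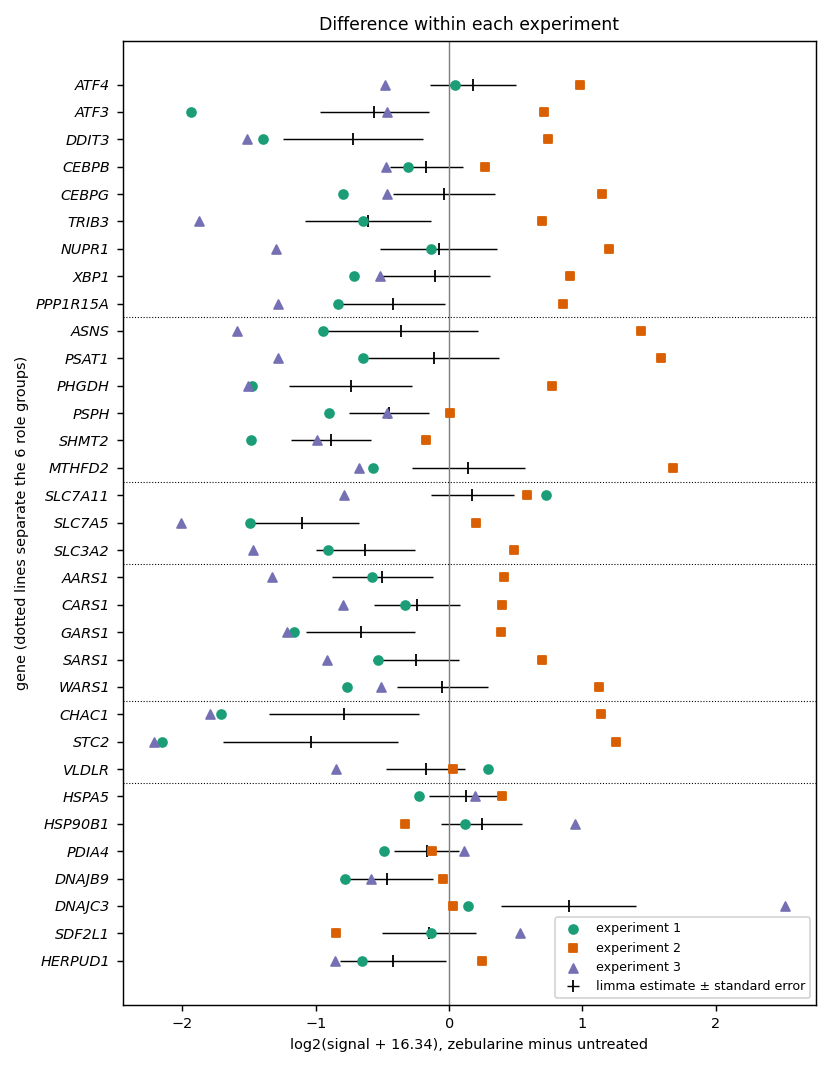
Difference between zebularine and untreated in log2(signal + 16.34) for each member gene (rows), in experiment 1 (circles), 2 (squares) and 3 (triangles), with the limma estimate and its standard error over all 3 as a black bar. Squares lie right of 0 and the other symbols left of it for most genes above the last dotted line; the 7 ER genes below it scatter.

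Tested against the spread between cultures, no member passed. The comparison used limma, with p-values adjusted by the Benjamini-Hochberg method across every tested probe set, and a member passed at an adjusted p under 0.05. The test called 0 of 33 members, against 0.642% of all tested genes (51 of 7939), and the smallest adjusted p among members was 0.249, for SHMT2. At an unadjusted p under 0.05 there were 2 members, SHMT2 and SLC7A5, against 13.1% of all tested genes. With the experiment as a block, which removes what both arrays of a number share, the test again called 0 of 33 members, against 4.45% of all tested genes, and 3 had an unadjusted p under 0.05, GARS1 beside those 2, against 21.3% of all tested genes. Neither count exceeds its background share. In 27 of 33 members the estimate was below 0, and the median was -0.25, against -0.01 over all tested genes. In 0 members did all 3 treated signals of the brightest probe set lie below all untreated ones, against 8.83% of all tested genes, and in 0 above them, against 9.33%. The p-values measure the spread between cultures of 1 line, called biological replicates in the labels.

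The result turned on experiment 2. In limma without untreated culture 2, 3 members passed, all lower with zebularine: SLC7A5 (-1.72 ± 0.28, adjusted p = 0.0296), PHGDH (-1.44 ± 0.27, adjusted p = 0.0360) and STC2 (-2.04 ± 0.38, adjusted p = 0.0380). The same fit called 0.806% of all tested genes. In the blocked fit without both arrays of experiment 2, 16 of 33 members passed, all lower, against 8.12% of all tested genes (645, 370 of them lower). They were 4 regulators (ATF3, DDIT3, TRIB3 and PPP1R15A), 9 of the 14 amino acid genes (ASNS, PSAT1, PHGDH, SHMT2, SLC7A5, SLC3A2, AARS1, GARS1 and SARS1), CHAC1, STC2 and, of the ER genes, HERPUD1. SLC7A5 (-1.75 ± 0.19, adjusted p = 0.000286), STC2 (-2.18 ± 0.28, adjusted p = 0.000603) and GARS1 (-1.19 ± 0.17, adjusted p = 0.00111) had the smallest p. Without experiment 1 the blocked fit called 0 members and 1.50% of all tested genes, and without experiment 3 0 members and 2.65%. Experiment 2 stood out through these same members, so members lower in experiments 1 and 3 were bound to come out lower without it. With 2 arrays left in each group, the blocked fit also had few arrays from which to measure spread. No label sets experiment 2 apart from the others, so these values show what 1 experiment does to the result and are not a result for the drug.

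The spread among the untreated cultures was wide in most members. Across the 3 untreated cultures the median member spanned 1.61 on the log2 scale, against 0.64 over all tested genes and 0.57 over the 3748 of them with a mean signal of at least 500 units. Across the 3 treated cultures the median member spanned 0.63, against 0.64 over all tested genes. The untreated span was the wider one in 30 of 33 members, against 50.0% of all tested genes. The exceptions were ATF4, SLC7A11 and VLDLR. In 24 of 33 members all 3 treated values lay inside the untreated range, against 15.2% of all tested genes. Untreated culture 2 set the low end of that range in 29 of 33 members. This count, the wider spans and the lower, higher, lower order are therefore not separate results. The members were also chosen with earlier results of these data known. With 3 cultures a group, whether treatment narrows the spread was not tested.

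**Figure D4:**
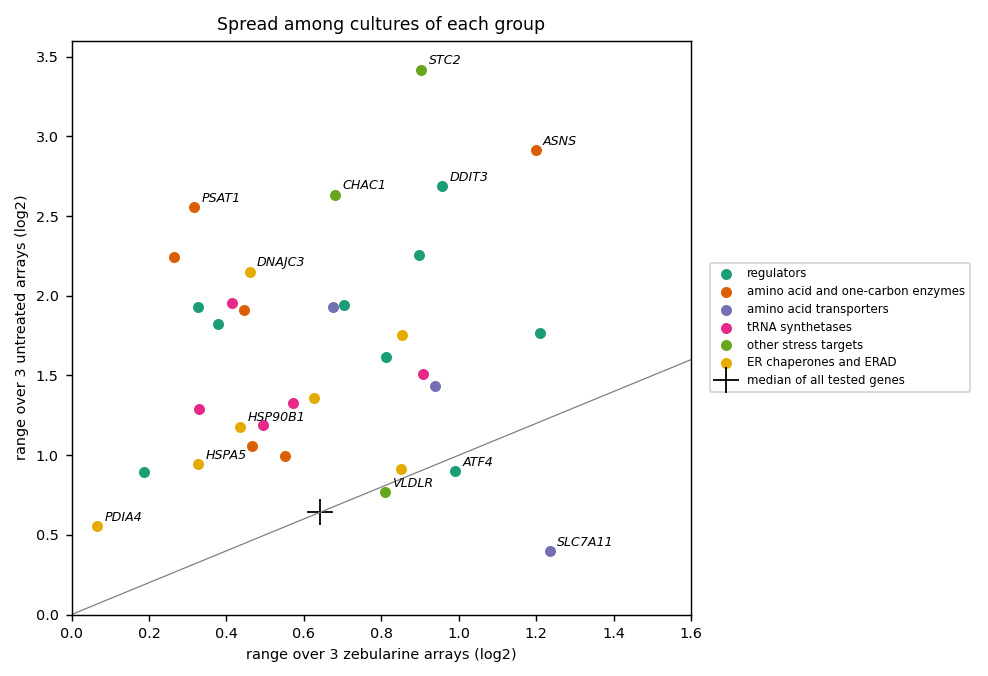
Range over the 3 zebularine arrays (x axis) against the range over the 3 untreated arrays (y axis) of each member gene, in log2 units, coloured by role; the axes have different scales, the line marks equal ranges and the cross the median of all tested genes (0.64 on both axes). All members but ATF4, SLC7A11 and VLDLR lie above the line, and STC2 reaches 3.42 on the y axis.

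Genes of the same pathways outside the member list were grouped into lists of their own, and most of the amino acid genes among them showed the same order. Of 10 further tested genes of amino acid synthesis and uptake linked to ATF4, 10 were lower in experiment 1, 8 higher in experiment 2 and 9 lower in experiment 3, and 9 were lowest in culture 2 among untreated cultures. The test called 0 of them with or without the block, and 4 without and 5 with the block had an unadjusted p under 0.05, against 13.1% and 21.3% of all tested genes; these shares are the background of every such count. The brightest were SLC38A2 and SLC7A1, importers of neutral and of cationic amino acids, with estimates of -0.14 ± 0.32 and -0.31 ± 0.46. CTH and CBS, the enzymes that turn homocysteine into cysteine, were chosen after their values were seen. They are among 7 of the 10 with the lower, higher, lower order, which ALDH18A1, SLC1A4 and BCAT1 did not show. CTH had signals of 2061.5, 229.9 and 1733 without and 480.0, 363 and 389.8 with zebularine, and CBS of 856, 126 and 738 and of 297, 241 and 225.

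Of 7 further tested tRNA synthetase and tRNA export genes linked to ATF4, 5 showed the lower, higher, lower order, and limma called 0 (0 of 7 without and 2 with the block at an unadjusted p under 0.05). The brightest 2 were IARS1, for isoleucine, with differences of -0.45, -0.48 and -0.39, and NARS1, for asparagine, with -0.13, 0.17 and -0.07. Of 4 tested synthetases without that link 0 showed the order and 0 were called, adjusted or not, and the brightest, KARS1 (lysine) and RARS1 (arginine), had estimates of 0.18 ± 0.26 and 0.15 ± 0.39. Of 8 other stress genes linked to ATF4, 7 were lowest in culture 2 among untreated cultures, and limma called 0, with 2 of 8 at an unadjusted p under 0.05 in either fit. GDF15, a secreted stress cytokine that p53 also controls, gave 10087, 1348 and 7243 untreated and 14535, 17611 and 7413 with zebularine, with an estimate of 1.42 ± 0.58 (limma, adjusted p = 0.345). VEGFA, the angiogenic factor that hypoxia factors also drive, had signals of 12701, 3116 and 6958 without and 13346.5, 7186.5 and 6068 with zebularine.

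Of 16 other ER folding genes tested, 1 showed the lower, higher, lower order, 11 had estimates above 0 and their median was 0.15. Of the 16, 6 were higher in all 3 experiments and 3 lower in all 3, against 21.5% and 22.0% of all tested genes. In 4 all treated signals lay above all untreated ones and in 1 below, against 9.33% and 8.83%. P4HB, a disulfide isomerase, was the 1 gene of the 16 called with the block, against 4.45% of all tested genes. There it fell by 0.51 ± 0.13 (limma, adjusted p = 0.0460, and 0.530 without the block), lower in 3 of 3 experiments. Of 14 tested genes of ER-associated degradation and translocation limma called 0 (2 without and 3 with the block at an unadjusted p under 0.05, near the background), and 1 was lowest in culture 2 among untreated cultures. In 4 of the 14 all treated signals lay above all untreated ones, and in 1 below. The brightest of the 14 were SEC61B, a channel subunit (0.07 ± 0.31), and SSR1, a translocon protein (0.61 ± 0.27). Of 9 tested genes of sensors, eIF2 kinases and proteins that act with them limma called 0, and 0 showed the order. At an unadjusted p under 0.05 there were 1 without and 3 with the block, against 13.1% and 21.3% of all tested genes. The brightest of the 9 were the haem-regulated kinase EIF2AK1 (-0.47 ± 0.26) and EIF2S1, the eIF2 alpha subunit (0.61 ± 0.29).

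Over 8 tested chaperones of the cytosol and mitochondria the median level was higher in untreated culture 2 than in cultures 1 and 3, by 0.58 and 0.61. HSPH1, a co-chaperone of HSP70, was the 1 gene of these 8 called with the block, against 4.45% of all tested genes. There it rose by 0.88 ± 0.19 (limma, adjusted p = 0.0283, and 0.225 without the block). Its signals were 1614.7, 3108.5 and 2253 in untreated and 3349, 4187 and 5122 in treated cultures.

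**Figure D5:**
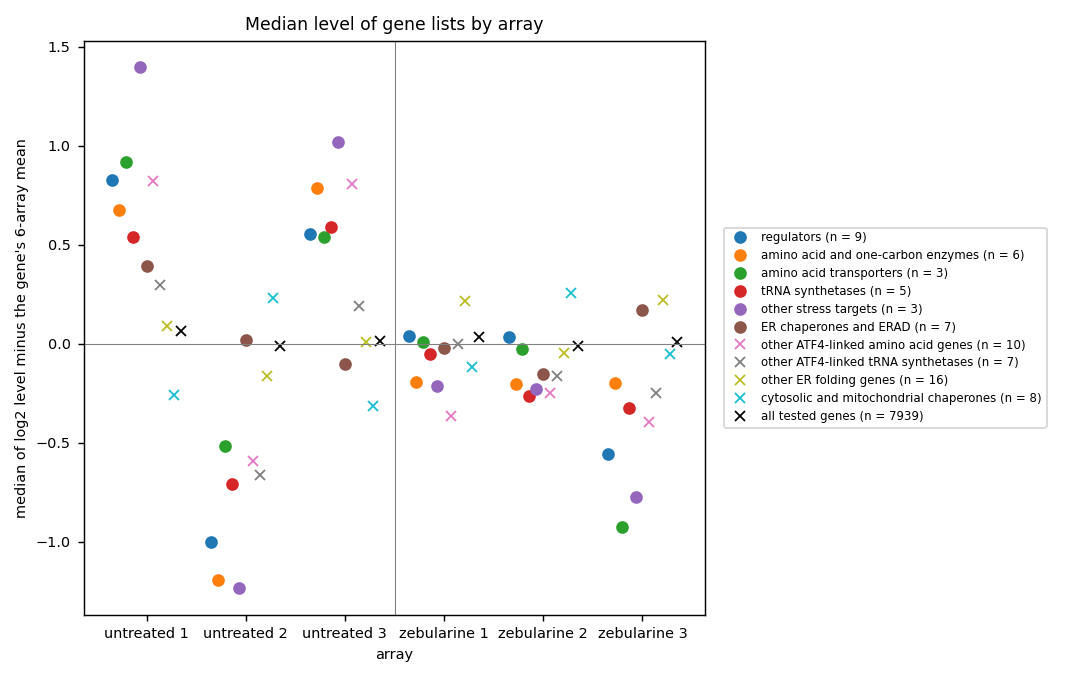
Median level of gene lists on each array, as log2 level minus the mean of each gene over the 6 arrays. Circles are the 6 role groups of members, and coloured crosses are some of the lists of other genes. The black cross is all tested genes, and n is the number of tested genes in a list. On untreated 2 the regulators, amino acid genes, synthetases and other stress targets lie between -1.23 and -0.51, the ER group at 0.02 and the cytosolic and mitochondrial chaperones at 0.23.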

How the data were processed

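RNA from 6 A-498 cultures (3 µg, RIN above 9.0 per the labels' protocols) was hybridised to Affymetrix arrays. The deposited values are linear MAS5 signal intensities, as the submitters' processing notes state, with software settings not given in the sources used here. Background is subtracted in MAS5, so dim values are noisy, and no further normalization was applied (the mean between the 2nd and 98th percentile was 499.1 to 499.8 on each array).

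Values were taken as log2(signal + 16.34), the median of all values divided by 8. A probe set was tested if it reached 78.5, the 40th percentile, on at least 3 arrays; 13548 of 22277 did, with 62 controls left out. Of all probe sets 19070 had 1 symbol, 1043 several and 2164 none, and 19058 matched RefSeq by Entrez number. Genes were represented by their brightest tested probe set. Groups were compared with limma 3.58.1 (R 4.3.3, lmFit, eBayes with trend, two-sided), a fit tested on simulated data. The number of arrays limits the precision.

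The arrays were paired by replicate number, since both arrays of a number share a code in the sample descriptions, and the deviations of the 2 arrays of an experiment from the mean of their own group had correlations of 0.323, 0.211 and 0.272. No 2 arrays shared more than 0.198% of their values. All members were named, and of each other pathway list the genes called with or without the block or else its 2 brightest. CTH and CBS were named outside this rule, after their values were seen. The members and lists were chosen with earlier results of these data known. Alternatives varied the pseudocount, filter, normalization, trend, block, probe sets and arrays. Figures were drawn with matplotlib 3.10.9.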

Additional observations from a re-analysis of the deposited data

How the results depend on the processing

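Among the 9 alternatives that used all arrays, including the replicate block, 0 of 33 members were called and all member estimates kept their sign. The number of genes called over the whole array was 31 with no pseudocount, 25 with no filter on dim probe sets, 5 with no mean-variance trend and 353 with the block. With 1 array or 1 experiment left out it ran from 0 (limma without zebularine 2) to 645 (blocked, without experiment 2), and the number of members called from 0 to 16. The median difference of the members ran from -0.78 to -0.02 in those fits. The members with the lowest untreated value in culture 2 numbered 29 under each pseudocount and after quantile normalization, a count that was rerun under these settings only after the data were seen. Of the 33 members 18 changed sign in at least 1 fit with arrays left out, with log2 differences that ranged for CEBPG -0.63 to 0.36, NUPR1 -0.72 to 0.53, XBP1 -0.72 to 0.24, ASNS -1.26 to 0.25, PSAT1 -0.97 to 0.47, WARS1 -0.64 to 0.31, SLC7A11 -0.10 to 0.66, SDF2L1 -0.49 to 0.20, ATF4 -0.22 to 0.51, MTHFD2 -0.63 to 0.55, HSPA5 -0.12 to 0.35, VLDLR -0.43 to 0.16, HSP90B1 -0.10 to 0.57, ATF3 -1.20 to 0.12, TRIB3 -1.30 to 0.025, PPP1R15A -1.06 to 0.010, CARS1 -0.63 to 0.035 and SARS1 -0.72 to 0.084; fewer samples were used there. DNAJC3 and CHAC1 fell below the 78.5-unit level in 1 culture each (35.0 and 71.5 units), which limits the precision of their differences.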
